A study of Mus musculus with 18 samples.

Results

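The genes described here are the 10 AMPA and NMDA receptor subunits Gria1, Gria2, Gria3, Gria4, Grin1, Grin2a, Grin2b, Grin2c, Grin2d and Grin3a, picked by symbol from the 55270 genes of a count table of the mouse substantia nigra. All 10 were listed and all 10 passed the filter on low values. The table holds 18 libraries in 3 groups of 6: intact mice, which are labelled WT and have no named treatment, mice overexpressing GFP from an adeno-associated virus (AAV-GFP), and mice overexpressing SIRT3, a mitochondrial protein deacetylase, from the same kind of vector (AAV-SIRT3). Tissue was taken at 3 months of age in all groups, a month after virus in the injected ones. The intact group therefore differs from both AAV groups in virus as well as in the gene delivered. Serotype, promoter, the species of the SIRT3 sequence, and the cells that took up virus are not given in the sources used here.

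Fast excitatory transmission in the brain runs through AMPA and NMDA receptors, ligand-gated channels built of 4 subunits that open when glutamate binds. AMPA receptors are assembled from GluA1 to GluA4, the products of Gria1 to Gria4, and carry most of the fast current. An edited GluA2 makes them nearly impermeable to calcium. NMDA receptors need GluN1 (Grin1) together with GluN2 (Grin2a to Grin2d) or GluN3 subunits. Those of GluN1 and GluN2 admit calcium and open only when a magnesium block is lifted by depolarisation. In the substantia nigra, dopaminergic neurons receive glutamate from the subthalamic nucleus and other regions, and NMDA receptors take part in their burst firing.

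The part of each coding sequence that lines the pore is shown because it holds the site that sets edited GluA2 apart from the other AMPA subunits. Each line gives 51 bases, 5′ to 3′, from a GENCODE M21 transcript (GRCm38) in its coding direction, with 1 codon in capitals and 24 bases on each side. In the 4 AMPA subunits the capitals mark the glutamine codon of the Q/R site, which RNA editing turns into an arginine codon in nearly all adult Gria2 transcripts.
Gria1: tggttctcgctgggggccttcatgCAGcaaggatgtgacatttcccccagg
Gria2: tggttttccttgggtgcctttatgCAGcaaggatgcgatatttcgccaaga
Gria3: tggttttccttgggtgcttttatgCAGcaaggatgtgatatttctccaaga
Gria4: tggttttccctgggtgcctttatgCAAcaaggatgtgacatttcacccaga
The genome encodes glutamine at this site in all 4 genes, so the arginine is not visible in the reference and editing cannot be read from a count per gene. Of the 51 bases, 48 in Gria3, 45 in Gria4 and 41 in Gria1 equal those of Gria2.

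Recovered counts summed over genes came to 47.2 to 64.7 M reads (megareads) per library, which leaves out reads not assigned to a gene. Mouse Sirt3 had a median of 1823 normalised reads (lowest 1733, highest 1920) for intact, 1756 (1684, 1936) for AAV-GFP and 1953 (1801, 2041) for AAV-SIRT3 libraries, so the AAV-SIRT3 range overlapped both others. The species of the delivered sequence is not given, so these values may not count its reads and do not measure its expression. All 12 dopaminergic markers, Th included, were detected in every library. Their sums were 48864 to 65578 normalised reads for intact, 42434 to 54297 for AAV-GFP and 48766 to 57913 for AAV-SIRT3 libraries. In AAV-GFP against intact 11 of them were lower and 1 higher (median log2 difference -0.30). There 2 passed an adjusted p of 0.05 (limma), beside 1.84% of all genes. In AAV-SIRT3 against intact 8 were lower, 4 higher and 0 passed. Of 8 GABAergic markers 6 were lower and 2 higher in AAV-GFP against intact, and 0 passed. In AAV-SIRT3 against AAV-GFP 11 dopaminergic markers were higher and 1 lower (median log2 difference 0.22). All 8 GABAergic markers were higher there (median 0.23). In both lists 0 passed, beside 0.113% of all genes. At an unadjusted p of 0.05 (limma) 6 dopaminergic and 3 GABAergic markers passed, beside 15.2% of all genes. Markers of thalamic neurons, which lie near the nigra, were also detected. Their sum was 23259, 24431 and 26905 in intact replicates 1, 3 and 5, against 45667 to 62369 in the other 3 intact libraries, 50986 to 61452 in AAV-GFP and 48942 to 69016 in AAV-SIRT3. The correlation across genes between a library's deviation and transcript length also moved with the groups, with Spearman values of 0.062 to 0.166 for intact, -0.300 to 0.105 for AAV-GFP and -0.286 to -0.023 for AAV-SIRT3 libraries. AAV-GFP replicate 2 and AAV-SIRT3 replicate 6 had the lowest of these. Both measures are taken up beside the results they touch. The tissue was measured in bulk, so fewer cells of a type and less RNA per cell cannot be told apart.

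Per kilobase of the longest coding transcript, Gria1 was the most abundant subunit in intact tissue at 3120 ± 325 normalised reads per kb (SD, n = 6). Grin1 followed at 2633 ± 203, Gria2 at 1955 ± 120, Gria4 at 1947 ± 154 and Gria3 at 1337 ± 95.1. Then came Grin3a at 648 ± 24.2, Grin2c at 447 ± 98.1, Grin2b at 432 ± 71.2, Grin2d at 399 ± 22.1 and Grin2a at 223 ± 35.2. Neighbours in this order whose ranges overlapped were Gria1 and Grin1, Gria2 and Gria4, Grin2c and Grin2b, and Grin2b and Grin2d. The order depends on which length is used. With the union of all annotated exons, Gria1 (2863) was still first and Grin2a (182) last, but Gria4 (1680) and Gria2 (1304) stood above Grin1 (1161), and Grin3a (395) fell below Grin2c (434) and Grin2b (418).

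**Figure D1:**
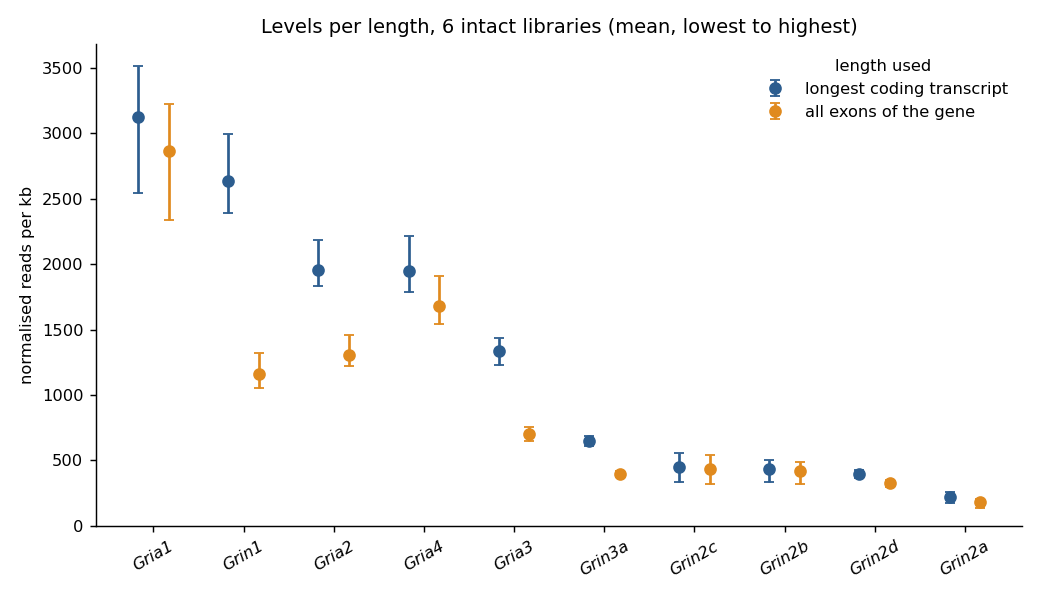
Level of each subunit in normalised reads per kb in the 6 intact libraries, with points for the mean and bars from the lowest to the highest library. Blue points use the longest coding transcript and orange points all exons of the gene. Gria1 was the highest on both (3120 and 2863) and Grin2a the lowest (223 and 182).

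For the effect of SIRT3 with the vector held in common, AAV-SIRT3 was compared with AAV-GFP by limma across 19443 genes. In this comparison 0 of 10 subunits passed an adjusted p of 0.05, where 0.113% of all genes did. Differences ran from -0.19 (Grin2b) to 0.13 (Grin2a) on the log2 scale, with 4 subunits below 0 and 6 above, and a median of 0.03 beside -0.004 for all genes. At an unadjusted p of 0.05 the count was 1, Grin3a, where 15.2% of all genes passed. DESeq2 and edgeR on the recovered reads also called 0 of 10, with 1.6% and 0.123% of all genes called. For AAV-GFP against intact, which compares virus and GFP with no treatment, limma called 0 of 10 with 1.84% of all genes called. edgeR called 0 (1.86% of all genes) and DESeq2 called 1, Gria2 (5.14% of all genes). Unadjusted, 4 subunits were under 0.05 (Gria1, Gria2, Grin2c and Grin3a), where 19.1% of all genes were. For AAV-SIRT3 against intact, where virus and SIRT3 differ together, limma called 1 of 10, Gria2, which was lower. In that comparison 21.7% of all genes were called and 10.3% were called lower, so the subunits' share was not above the background. edgeR and DESeq2 also called 1 of 10, with 21% and 23.7% of all genes called. Unadjusted, 2 subunits were under 0.05, where 34.9% of all genes were. The median difference of the subunits was -0.05 in AAV-GFP and -0.04 in AAV-SIRT3 against intact, beside 0.0007 and -0.005 for all genes. The 2 comparisons against intact share the intact libraries.

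**Figure D2:**
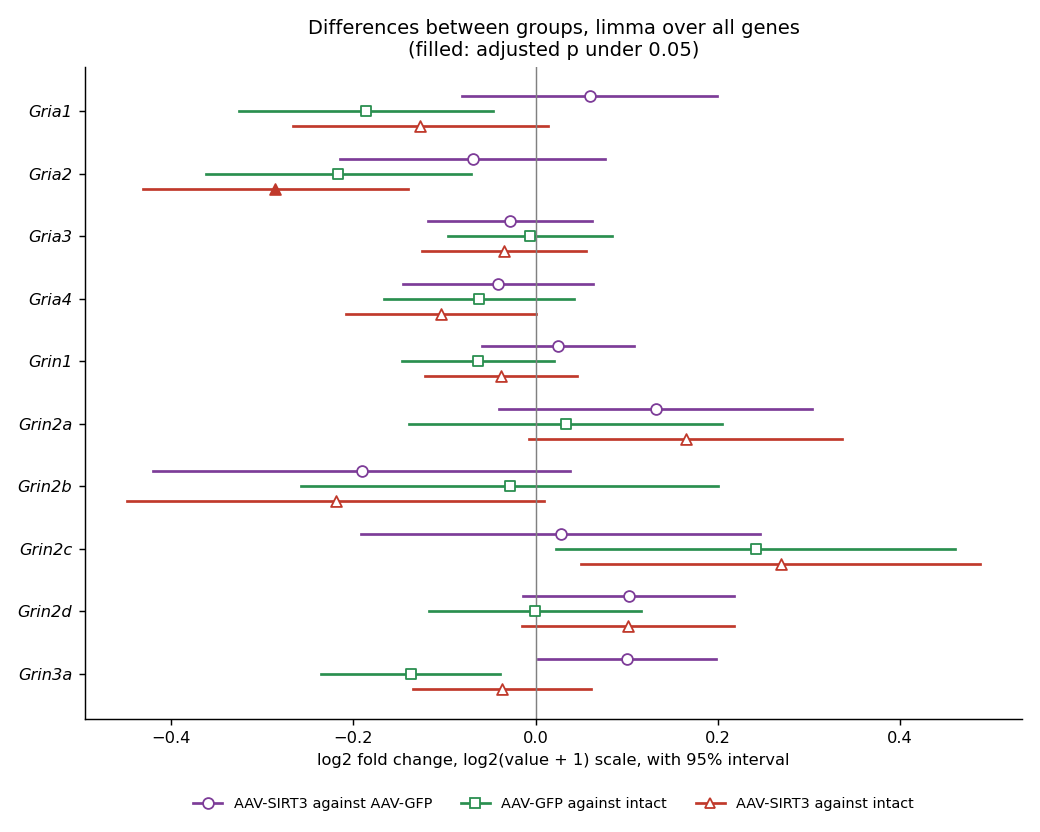
Log2 difference of each subunit in the 3 comparisons, with points for the estimate and bars for the 95% confidence interval from limma (18 libraries, 6 per group). The interval for Gria2 in AAV-SIRT3 against intact ran from -0.43 to -0.14, and this was the difference that passed the adjusted threshold.

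Gria2 encodes GluA2, the subunit that limits calcium entry once edited. The gene lies on chromosome 3 (80681450 to 80802835, minus strand, GRCm38). Its lowest, median and highest levels were 19017, 20068 and 22627 normalised reads for intact, 13759, 17967 and 19375 for AAV-GFP, and 14359, 16794 and 18884 for AAV-SIRT3 libraries. Every AAV-SIRT3 library was below every intact one, a separation in this direction that 4.32% of all genes showed, while AAV-GFP overlapped both. Gria2 fell by 0.29 (log2) in AAV-SIRT3 against intact (SE 0.0701, adjusted p = 0.0068, limma), a change of -17.96%. Against intact, AAV-GFP differed by -0.22 (SE 0.0701, adjusted p = 0.0959, limma). The difference between the AAV groups was -0.07 (95% interval -0.21 to 0.08, adjusted p = 0.678, limma), so this loss relative to intact was not shown to differ between SIRT3 and GFP.

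The Gria2 call against intact was lost in each setting below, while the difference of -0.29 itself moved mainly with length. Gria2 has 15.5 kb of annotated exons, longer than 98.1% of tested genes. With the length trend of each library removed the difference was -0.13 (adjusted p = 0.0554, limma, with 17% of all genes called). It was -0.27 with the thalamic markers as a covariate (adjusted p = 0.0822, limma, 6.42% of all genes called) and -0.27 without intact replicates 1, 3 and 5 (adjusted p = 0.057, limma, 8.67% of all genes called).

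Gria1 encodes GluA1, the subunit tied to activity-dependent insertion of AMPA receptors at synapses. It lies on chromosome 11 (57011387 to 57330244, plus strand). Gria1 had lowest, median and highest levels of 14106, 17760 and 19480 normalised reads for intact, 13795, 15294 and 16467 for AAV-GFP, and 14692, 15348 and 18229 for AAV-SIRT3 libraries. All groups overlapped, with intact replicate 1 the lowest of its group and below the median of both AAV groups. The differences from intact were -0.19 in AAV-GFP (SE 0.0673, adjusted p = 0.133, limma) and -0.13 in AAV-SIRT3 (SE 0.0673, adjusted p = 0.188, limma). Leaving out intact replicate 1 brought both past the threshold, at -0.24 (adjusted p = 0.0407, limma) and -0.18 (adjusted p = 0.0304, limma). Over the fits that each left out 1 library, 129 to 686 of 19443 genes were called in AAV-GFP against intact. In AAV-SIRT3 against intact 3279 to 4633 were. Leaving out intact replicate 3 instead shrank the Gria1 differences to -0.15 and -0.09. With markers of hippocampal and cortical neurons as a covariate they were -0.13 and -0.08. Neither of these settings brought a call. Between the AAV groups the difference was 0.06 (95% interval -0.08 to 0.20).

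Gria3 and Gria4 encode GluA3 and GluA4, the second of which gives fast-closing receptors. Gria3 lies on chromosome X (41400854 to 41678601, plus strand) and had medians of 7007, 6901 and 6770 normalised reads in intact, AAV-GFP and AAV-SIRT3 libraries, within an overall range of 6300 to 7446. Its differences lay between -0.03 and -0.01, the smallest spread among the AMPA subunits. Gria4 lies on chromosome 9 (4417896 to 4796234, minus strand) and had lowest, median and highest levels of 9709, 10620 and 12054 for intact, 9430, 10164 and 10868 for AAV-GFP, and 8952, 9897 and 10344 for AAV-SIRT3 libraries. These ranges overlapped, and Gria4 differed from intact by -0.10 in AAV-SIRT3 (SE 0.0502, adjusted p = 0.145, limma).

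**Figure D3:**
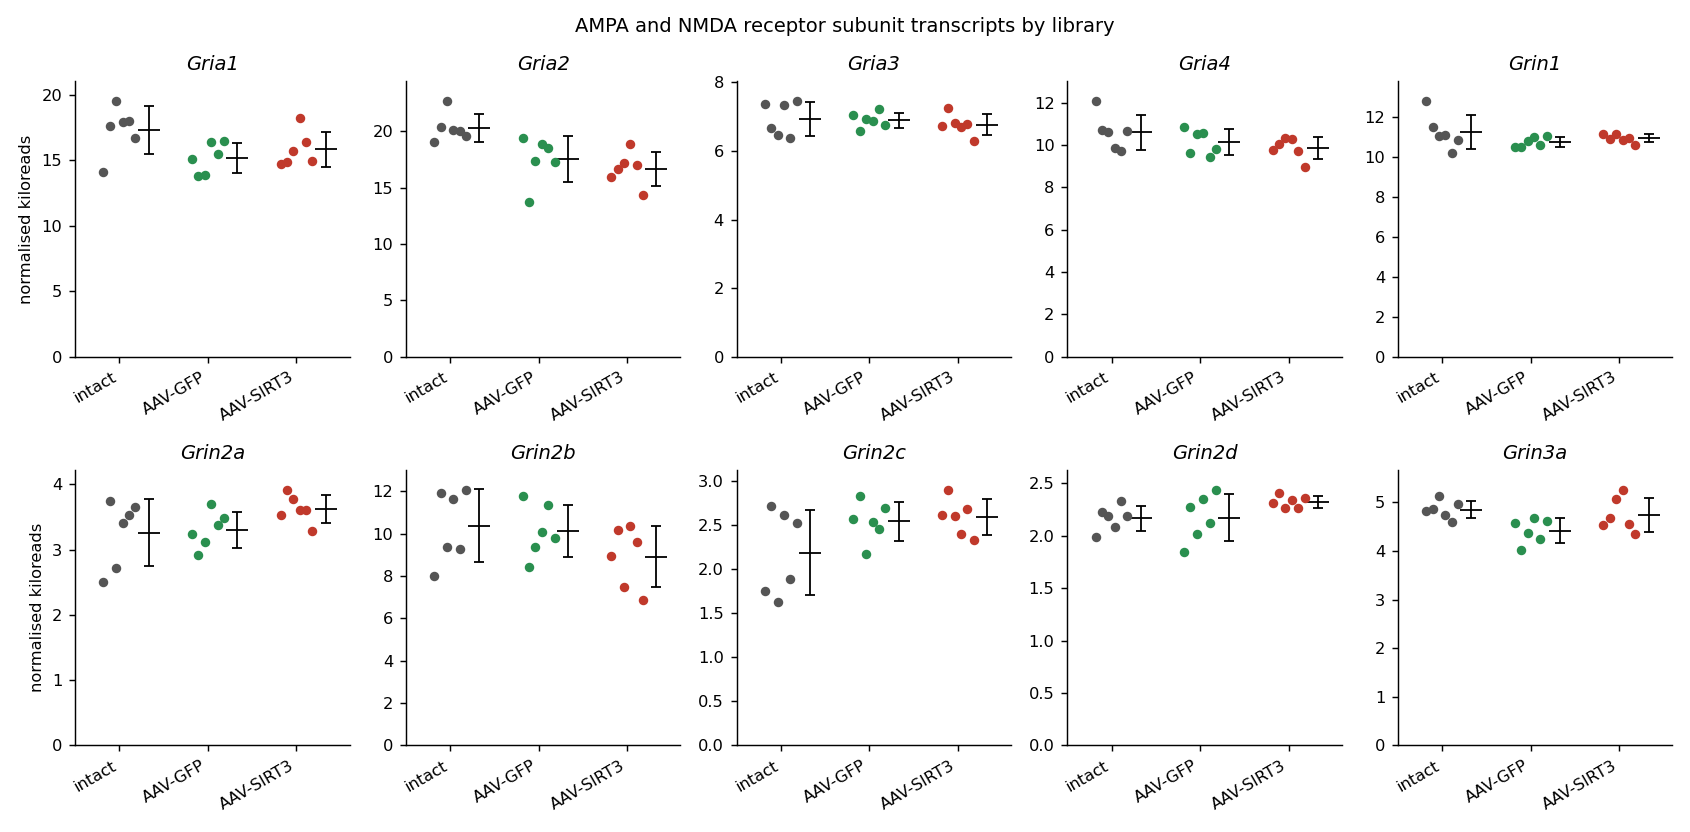
Normalised kiloreads of the 10 subunits, with 1 point per library, 6 per group, and black dashes with bars for the mean and SD. Gria2 was between 19017 and 22627 in intact and between 14359 and 18884 in AAV-SIRT3 libraries, with no overlap (4.32% of all genes were separated this way), while the other 9 subunits overlapped between these groups.

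Grin1 encodes GluN1, the obligatory subunit of NMDA receptors that binds the co-agonists glycine and D-serine. It lies on chromosome 2 (25291181 to 25319187, minus strand) and overlaps the antisense gene Grin1os in exons. The strand setting of the counting is not given, so reads of the pair may not have been told apart. Lowest, median and highest Grin1 levels were 10211, 11095 and 12794 normalised reads for intact, 10488, 10706 and 11075 for AAV-GFP, and 10619, 10916 and 11177 for AAV-SIRT3 libraries. The intact libraries spread the widest and enclosed the others. Grin1 differed by 0.03 between the AAV groups (95% interval -0.06 to 0.11) and by -0.04 between AAV-SIRT3 and intact (95% interval -0.12 to 0.05).

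Grin2a and Grin2b encode GluN2A and GluN2B, which set how quickly NMDA receptors close, GluN2B receptors being the slower. Grin2a lies on chromosome 16 (9567898 to 9995560, minus strand). Grin2a had lowest, median and highest levels of 2508, 3466 and 3738 normalised reads for intact, 2914, 3310 and 3698 for AAV-GFP, and 3279, 3603 and 3910 for AAV-SIRT3 libraries. The groups overlapped, with differences of 0.13 for AAV-SIRT3 against AAV-GFP (SE 0.0828, adjusted p = 0.46, limma) and 0.17 against intact (SE 0.0828, adjusted p = 0.161, limma). Grin2a has 17.9 kb of exons. With the length trend removed the latter was 0.34 (adjusted p = 0.00644, limma), past the threshold. With the thalamic covariate its sign turned, to -0.0645.

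Grin2b lies on chromosome 6 (135713233 to 136173511, minus strand), has 24.8 kb of exons and is overlapped by opposite-strand non-coding genes. In intact, AAV-GFP and AAV-SIRT3 libraries the lowest, median and highest levels were 8024, 10526 and 12062 normalised reads in the first, 8431, 9932 and 11788 in the second, and 6887, 9295 and 10390 in the third. The groups overlapped, and the differences were -0.19 for AAV-SIRT3 against AAV-GFP (SE 0.11, adjusted p = 0.416, limma) and -0.22 against intact (SE 0.11, adjusted p = 0.162, limma). Within the intact group Grin2b was 8024 to 9390 in replicates 1, 3 and 5 and 11662 to 12062 in the other 3. Those 3 low libraries are the ones with low thalamic markers. Without them the difference of AAV-SIRT3 from intact was -0.43 (adjusted p = 0.028, limma), and with the thalamic covariate -0.48 (adjusted p = 0.0229, limma). With the length trend removed it was 0.0002.

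Grin2c encodes GluN2C, whose receptors are less sensitive to magnesium. It lies on chromosome 11 (115249169 to 115267243, minus strand). Levels, given as lowest, median and highest, were 1628, 2206 and 2713 normalised reads for intact, 2167, 2554 and 2826 for AAV-GFP, and 2330, 2606 and 2896 for AAV-SIRT3 libraries. The intact libraries fell into 1628 to 1894 in replicates 1, 3 and 5, below every AAV library, and 2519 to 2713 in the other 3, inside the AAV ranges. Grin2c differed from intact by 0.24 in AAV-GFP (SE 0.105, adjusted p = 0.214, limma) and by 0.27 in AAV-SIRT3 (SE 0.105, adjusted p = 0.072, limma). Leaving out intact replicate 2, 4 or 6 took the second past the threshold, at 0.34, 0.33 and 0.32 (adjusted p = 0.0253, 0.0386 and 0.0427, limma). Without intact replicates 1, 3 and 5 it was -0.02, and with the thalamic covariate -0.10. In the intact group the other 8 subunits overlapped between these 2 sets of libraries, and Th was 5950 to 6637 normalised reads in replicates 1, 3 and 5 against 4623 to 5408 in the others. The sets were formed after the data were seen. The share of all genes separated between them was not computed, so the separation of Grin2b and Grin2c has no background beside it.

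Grin2d encodes GluN2D, a slowly deactivating subunit found in midbrain and other subcortical neurons. It lies on chromosome 7 (45831883 to 45878378, minus strand) and overlaps the antisense gene Gm45441 in exons. Grin2d had lowest, median and highest levels of 1987, 2188 and 2334 normalised reads for intact, 1844, 2200 and 2435 for AAV-GFP, and 2261, 2323 and 2410 for AAV-SIRT3 libraries. AAV-SIRT3 libraries spread little and overlapped the upper end of both other groups. Differences were 0.10 against AAV-GFP (SE 0.056, adjusted p = 0.388, limma) and 0.10 against intact (SE 0.056, adjusted p = 0.205, limma).

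Grin3a encodes GluN3A, which binds glycine and lowers calcium entry and magnesium block. It lies on chromosome 4 (49661611 to 49845744, minus strand). For Grin3a the libraries had lowest, median and highest levels of 4595, 4851 and 5125 normalised reads for intact, 4019, 4469 and 4679 for AAV-GFP, and 4347, 4616 and 5253 for AAV-SIRT3 libraries. AAV-GFP was the lowest group and overlapped intact at its upper end. Grin3a differed by -0.14 in AAV-GFP against intact (SE 0.0472, adjusted p = 0.116, limma), by 0.10 in AAV-SIRT3 against AAV-GFP (SE 0.0472, adjusted p = 0.319, limma) and by -0.04 in AAV-SIRT3 against intact.

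**Figure D4:**
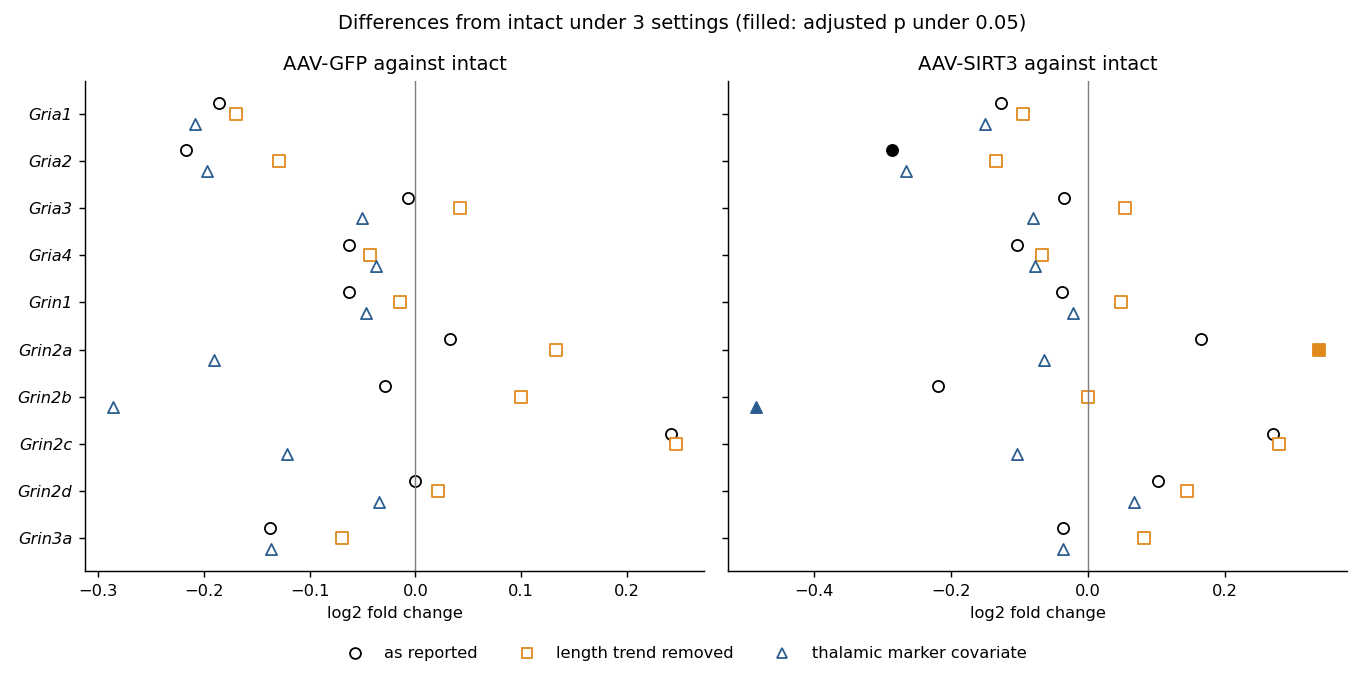
Log2 difference of each subunit from intact in AAV-GFP and AAV-SIRT3 libraries, as reported (circles), with the length trend removed (squares) and with the thalamic markers as a covariate (triangles), filled where the adjusted p was under 0.05. In AAV-SIRT3 against intact Gria2 was -0.29, -0.13 and -0.27, while Grin2b was -0.22, 0.0002 and -0.48 and Grin2c had 0.27 as reported and -0.10 with the covariate.

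Ratios of subunits within a library do not depend on how libraries are scaled. In many neurons GluN2A gains on GluN2B as they mature. The ratio of Grin2a to Grin2b was compared in normalised reads by an exact two-sided permutation test, adjusted over 6 ratio comparisons. Its lowest, median and highest values were 0.290, 0.307 and 0.380 for intact, 0.275, 0.339 and 0.367 for AAV-GFP, and 0.347, 0.390 and 0.502 for AAV-SIRT3 libraries. The AAV-SIRT3 libraries were the highest group, and the ranges overlapped. The log2 ratio was higher by 0.32 in AAV-SIRT3 than in AAV-GFP (25.1%, exact permutation p = 0.00866, adjusted p = 0.0173) and by 0.38 than in intact (30.5%, exact permutation p = 0.00649, adjusted p = 0.0173). AAV-GFP and intact differed by 0.06 (exact permutation p = 0.491, adjusted p = 0.59). Leaving out AAV-GFP replicate 1 gave 0.27 for the first of these (exact permutation, adjusted p = 0.0519). Leaving out AAV-GFP replicate 2 and AAV-SIRT3 replicate 6, the libraries with the lowest length correlation, gave 0.29 (exact permutation, adjusted p = 0.0635). The ratios tested were chosen with earlier results of these data known. Grin2a (0.13) and Grin2b (-0.19) had the highest and lowest differences of the subunits in AAV-SIRT3 against AAV-GFP. Ratios of other gene pairs were not computed, so these p-values have no background beside them.

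The ratio of Gria1 to Gria2, whose rise would mean relatively less GluA2 message, was treated in the same way. Its lowest, median and highest values were 0.742, 0.864 and 0.899 for intact, 0.780, 0.852 and 1.00 for AAV-GFP, and 0.895, 0.943 and 1.04 for AAV-SIRT3 libraries. The AAV-SIRT3 range began at the top of the intact range. The log2 ratio was higher by 0.16 in AAV-SIRT3 than in intact (11.7%, exact permutation p = 0.00433, adjusted p = 0.0173). With the length trend removed it was higher by 0.04 (exact permutation, adjusted p = 0.592), which ended the call. Against AAV-GFP the difference was 0.13 (exact permutation p = 0.0931, adjusted p = 0.14), or 0.17 without AAV-GFP replicate 2 (exact permutation, adjusted p = 0.0325). AAV-GFP and intact differed by 0.03 (exact permutation, adjusted p = 0.677).

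**Figure D5:**
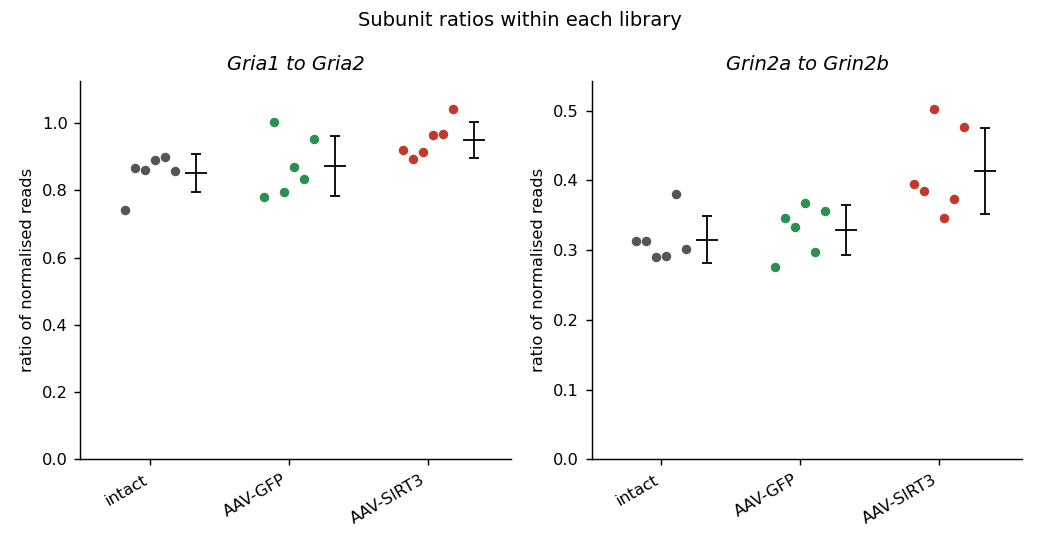
Ratios of normalised reads within each library for Gria1 to Gria2 and Grin2a to Grin2b, with 1 point per library, 6 per group, and black dashes with bars for the mean and SD. AAV-SIRT3 libraries had the highest medians in both, 0.943 and 0.390.

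Other genes of glutamate signalling were read from the same fit, in lists taken from known function. None of these lists had a member that passed in AAV-SIRT3 against AAV-GFP by limma, where 0.113% of all genes did. At an unadjusted p of 0.05 the members were 1 of 12 auxiliary subunits, 0 of 25 anchoring proteins, 1 of 8 other ionotropic subunits, 0 of 7 metabotropic receptors, 0 of 10 supply and clearance genes and 0 of 3 editing enzymes, beside 15.2% of all genes. Each list count below was also taken under the 35 alternatives used for the subunits, 18 of which each left out 1 library.

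Among 12 auxiliary subunits, which escort AMPA receptors and shape their gating, 1 rose in AAV-SIRT3 against intact and 11 did not pass, a share not above the 11.3% of all genes that rose. Cnih2, a cornichon that slows AMPA receptor closing, was at 2891 to 3943 normalised reads in intact and 3976 to 4978 in AAV-SIRT3 libraries, with no overlap (5.01% of all genes were separated this way), and was higher by 0.23 (SE 0.0727, adjusted p = 0.0255, limma). Across the list 10 differences were above 0 and 2 below, with a median of 0.10 beside -0.005 for all genes. Cacng2, which encodes stargazin, differed by 0.02. The count was 0 in 5 alternatives: without AAV-SIRT3 replicate 5, with the thalamic covariate, with the length trend removed (with or without a replicate block) and without intact replicates 1, 3 and 5. It was 2 in 7 others, among them the omission of intact replicate 2 or 6 or of AAV-GFP replicate 1 or 4.

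Of 25 anchoring and trafficking proteins, which hold receptors at the postsynaptic density, 4 rose and 4 fell in AAV-SIRT3 against intact, where 11.3% of all genes rose and 10.3% fell. The largest fall was in Dlgap2, a scaffold that links PSD-95 to Shank proteins. Dlgap2 was at 541 to 653 normalised reads in intact and 297 to 534 in AAV-SIRT3 libraries, with no overlap (4.32% of all genes were separated this way). It fell by 0.66 (SE 0.121, adjusted p = 0.00126, limma). Its relative Dlgap3 rose by 0.43 and the scaffold Shank3 by 0.41 (adjusted p = 0.00413 and 0.0213, limma). Shank3 was at 5283 to 10349 in intact libraries, a range that overlapped the 8391 to 11078 of AAV-SIRT3. Grip1, which binds the tail of GluA2 and GluA3, fell by 0.24 (SE 0.0607, adjusted p = 0.00811, limma). Nptx1, a secreted pentraxin that clusters AMPA receptors, fell by 0.33 in AAV-GFP against intact (adjusted p = 0.0168, limma) and by 0.23 in AAV-SIRT3 (adjusted p = 0.0203, limma). It was the 1 member called in the former comparison, where 1.84% of all genes were. That call was lost with the thalamic covariate and without intact replicates 1, 3 and 5, while the count rose to 4 without intact replicate 2, 3 without intact replicate 6, and 2 when AAV-SIRT3 replicate 4 or AAV-GFP replicate 1 was left out. The count of 8 in AAV-SIRT3 against intact became 4 without intact replicate 3 or 5, and 5 without intact replicate 1 or AAV-SIRT3 replicate 1 or 2. It was 2 with the thalamic covariate, 1 without intact replicates 1, 3 and 5, and 10 with the length trend removed.

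Of 8 other ionotropic subunits, 2 kainate receptor genes fell in both comparisons with intact, Grik3 by 0.29 in AAV-GFP and 0.25 in AAV-SIRT3 (adjusted p = 0.0368 and 0.0156, limma), and Grik4 by 0.22 and 0.19 (adjusted p = 0.0489 and 0.0237, limma). Grik3 was at 3811 to 4471 normalised reads in intact libraries, 2736 to 3813 in AAV-GFP and 3079 to 4048 in AAV-SIRT3. In AAV-GFP against intact, where 1.84% of all genes were called, this count of 2 fell in 22 of 35 alternatives. It was 0 in 11 of them, among them the omission of intact replicate 3, 4 or 5 or of AAV-GFP replicate 2, 3 or 5, and the thalamic covariate. It was 1 without intact replicate 1, AAV-GFP replicate 4 or 6, or AAV-SIRT3 replicate 1, 2, 3 or 5. In AAV-SIRT3 against intact, where 10.3% of all genes fell, the count of 2 became 0 with the thalamic covariate, with the length trend removed and without intact replicates 1, 3 and 5. It was 1 without intact replicate 3 or 5 or AAV-SIRT3 replicate 2 or 5, and 3 when AAV-SIRT3 replicate 4 or AAV-GFP replicate 2 was left out.

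Of 7 tested metabotropic receptors, Grm4 and Grm2, which lower transmitter release, rose by 0.25 and 0.20 in AAV-SIRT3 against intact (adjusted p = 0.0234 and 0.049, limma). Grm5, which couples to calcium release and binds Homer, fell by 0.23 (adjusted p = 0.0328, limma). Beside these 3 of 7, 21.7% of all genes were called, 11.3% higher and 10.3% lower. The count fell in 24 of 35 alternatives, to 0 without intact replicate 3, to 1 without intact replicate 4 or 5 or AAV-SIRT3 replicate 1, 2, 3 or 5, and to 1 with the thalamic covariate. It was 2 without intact replicate 1 or 2, AAV-GFP replicate 3, 4 or 5, or AAV-SIRT3 replicate 6. Grm6 was at most 0.919 normalised reads in any library and was not tested.

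Of 10 genes for supply and clearance of glutamate and co-agonists, Glul, the astrocytic glutamine synthetase, rose by 0.18 in AAV-SIRT3 against intact (adjusted p = 0.0167, limma), 1 of 10 beside 11.3% of all genes. That call was lost with quantile normalisation, and the count was 3 without intact replicate 2 or 6 or AAV-SIRT3 replicate 6 and with the length trend removed. Of the 3 editing enzymes 1 was called, beside 21.7% of all genes. Adar fell by 0.19 in the same comparison (SE 0.0449, adjusted p = 0.0052, limma), from 9117 to 9833 normalised reads in intact to 7564 to 9215 in AAV-SIRT3 libraries. Adarb1, which edits the Q/R site marked in capitals in the Gria2 sequence, differed by 0.15 (SE 0.0921, adjusted p = 0.257, limma). All 8 thalamic markers were called higher in AAV-SIRT3 against intact, beside 11.3% of all genes. All 8 were also above 0 in AAV-GFP against intact, where 2 were called, beside 1.84% of all genes. Intact replicates 1, 3 and 5 had the low sums of these markers. With the thalamic score as a covariate, 6.42% of all genes were called in AAV-SIRT3 against intact. The counts there were 0 auxiliary, 2 anchoring, 0 other ionotropic, 1 metabotropic, 1 supply and clearance and 2 editing genes.

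The genes whose level followed each subunit most closely were found among 15247 genes, as the Pearson correlation of log2 values over 18 libraries after group means were subtracted. These are descriptions, and the libraries share depth, dissection and the length trend. Gria2 was most alike to Grm5 (r = 0.96) and Dzip3 (0.94), Gria1 to Zmym3 (0.93) and Plxnc1 (0.93), Gria3 to Clec16a (0.87) and Golga1 (0.83), and Gria4 to Gm26873 (0.91) and Luzp2 (0.90). Grin2b was most alike to B230334C09Rik (0.96) and Lrrc7 (0.94), Grin2a to Cttnbp2 (0.91) and Shank2 (0.89), Grin2c to Gabrd (0.95) and Tafa4 (0.94), and Grin2d to Lrfn1 (0.87) and Csnk2a2 (0.86). Grin1 followed Atp10b (0.87) and Dis3l2 (0.86), and Grin3a followed Fam169a (0.89) and Zmym4 (0.88).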

How the data were processed

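Poly-A RNA with an integrity number above 7.0 was sequenced as stranded libraries in pairs of 100 bp, per the labels' protocols. The deposited signal is the authors' HTSeq count per gene divided by a DESeq2 size factor, per the name and values of the deposited table. HISAT2 2.1.0, DESeq2 1.34.0 and mm10 are named in the submitters' processing notes, and the annotation and strand setting are not given in the sources used here. Whole reads came back for 100% of values (within 1e-06 reads). The check is weaker in the pair of libraries with a size factor near 1 (replicate 4 of the intact and of the AAV-SIRT3 group).

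Values were tested as log2(value + 1), which understates changes of low genes, in 1 limma 3.58.1 model (R 4.3.3) over 18 libraries with 15 residual degrees of freedom. Genes with at least 10 in at least 6 libraries entered (19443), and p-values were Benjamini-Hochberg adjusted over them at 0.05. edgeR 4.0.16 and DESeq2 1.42.0 were run on the recovered reads. Ratios were tested by exact permutation, whose smallest p is 0.0021645. Lengths and positions came from GENCODE M21, matched by symbol for 49090 genes. The length trend was a lowess fit (span 0.3) of each library's deviations on exon length over 18823 genes. Replicate pairs differed by more than sampling noise (chi-square per degree of freedom 8.05 to 36.3). The design text counts mice per group, so each library was taken as 1 mouse. The procedure was tested on simulated data.

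The members, gene lists and tests were chosen with earlier results of these data known. The rule for names was all 10 subunits, the members of each pathway list past the threshold (up to 4 per comparison), and the 2 most alike genes per subunit. Cacng2 and Adarb1 were named after their values were seen.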

Additional observations from a re-analysis of the deposited data

Results flagged for a closer look

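Of 36 groups of 6 values (the 10 subunits and both ratios in each group of mice), 3 had a library whose gap to the other 5 passed Dixon's 95% critical value, where chance gives 1.8. The level of Gria2 in intact replicate 3 was 22627 normalised reads against 20336 for the next highest, a gap of 0.635 of the group's range. The log2 ratio of Gria1 to Gria2 in intact replicate 1 was -0.43 against -0.22 for the next lowest, a gap of 0.753. The log2 ratio of Grin2a to Grin2b in intact replicate 5 was -1.40 against -1.68 for the next highest, a gap of 0.716. All 3 libraries belong to the intact replicates with low thalamic markers, and the part of these markers in the flags was not tested.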

How the results depend on the processing

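Gria2 in AAV-SIRT3 against intact kept its direction in all 35 alternatives, from -0.32 to -0.13, and its call in 32 of them, 18 of which each left out 1 library. Some of the 35 could change only the p-value and not the difference, so their direction was fixed in advance. These were the omission of an AAV-GFP library, the fit of only the 2 groups, the replicate block and the other gene filters. The 3 alternatives that ended the call were the length trend, the thalamic covariate and the omission of intact replicates 1, 3 and 5. That omission, and that of AAV-GFP replicate 2 with AAV-SIRT3 replicate 6, were chosen after seeing the data. No subunit was called between the AAV groups under any setting run. Each subunit had at least 1628 normalised reads in each library. The causes of the changes below were not tested.

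Genes called in AAV-SIRT3 against AAV-GFP (22) were 8 with only the 2 groups in the fit, 311 by DESeq2, 357 without AAV-GFP replicate 2 and AAV-SIRT3 replicate 6, and 5 to 861 leaving out 1 library (5 without AAV-SIRT3 replicate 5, 861 without AAV-GFP replicate 2). In AAV-GFP against intact (358) they were 164 with all genes above 0, 199 with only the 2 groups, 16 with the thalamic and 157 with the hippocampal and cortical covariate, 999 by DESeq2, 10 without intact replicates 1, 3 and 5, 230 without AAV-GFP replicate 2 and AAV-SIRT3 replicate 6, and 129 to 686 leaving out 1 library (129 without intact replicate 3, 686 without AAV-GFP replicate 1). In AAV-SIRT3 against intact (4214) they were 1248 with the thalamic covariate, 1686 without intact replicates 1, 3 and 5, and 3279 to 4633 leaving out 1 library. Subunits called in AAV-GFP against intact were 1 by DESeq2 and 0 to 1 leaving out 1 library. Between AAV-SIRT3 and intact they were 2 by quantile normalisation and 2 with the pan-neuronal covariate (Gria4 joined at -0.12 and -0.14), and 1 to 2 leaving out 1 library. The genes called by quantile normalisation and with the pan-neuronal covariate are not given here, so those subunit counts have no background beside them.

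Same-numbered libraries did not deviate together. Their correlations were -0.089 to 0.078 for AAV-SIRT3 with AAV-GFP, -0.0953 to 0.0552 for AAV-GFP with intact and -0.056 to 0.175 for AAV-SIRT3 with intact, with 0, 0 and 1 of 6 pairs over 0.1 and 0, 0 and 1 libraries most like their own number, so the numbers were not taken as pairs. With a replicate block, 13 genes were called in AAV-SIRT3 against AAV-GFP, or 11 with the length trend also removed. For AAV-SIRT3 and intact the block gave 2 subunits (Grin2c joined, 0.27), or 3 with the length trend also removed. The genes called in those settings are not given here, so these subunit counts have no background beside them. Over the alternatives other than the omission of 1 library, 1248 to 4617 of 19443 genes were called in that comparison. A balanced block leaves the log2 ratio differences as they are, at 0.16 for Gria1 to Gria2 in AAV-SIRT3 against intact and at 0.32 and 0.38 for Grin2a to Grin2b in AAV-SIRT3 against AAV-GFP and intact, with an adjusted exact permutation p of 0.125 for each. With 6 pairs the smallest two-sided p is 0.0312 before adjustment over 6 ratio comparisons, so these values say nothing about stability.

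Ratio of Gria1 to Gria2: in AAV-GFP against intact the sign turned with the length trend removed (-0.0400), without intact replicates 1, 3 and 5 (-0.00299) and without AAV-GFP replicate 2 and AAV-SIRT3 replicate 6 (-0.0105), and leaving out 1 library gave -0.0105 to 0.0619. Between AAV-SIRT3 and intact the difference was 0.0396 with the length trend removed, and against AAV-GFP it was 0.0972 to 0.17 leaving out 1 library. For Grin2a to Grin2b in AAV-SIRT3 against AAV-GFP it was 0.29 without AAV-GFP replicate 2 and AAV-SIRT3 replicate 6, and 0.26 to 0.37 leaving out 1 library.

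Subunits that were not called also changed sign. In AAV-SIRT3 against AAV-GFP, Grin1 was -0.00665 with the pan-neuronal covariate, Gria3 0.0106 with the length trend removed, with or without the block, and Grin2c -0.0174 to 0.0591 leaving out 1 library. In AAV-GFP against intact the thalamic covariate gave -0.19 for Grin2a and -0.12 for Grin2c, and leaving out intact replicates 1, 3 and 5 gave -0.12 and -0.0454. The hippocampal and cortical covariate gave 0.00517 for Grin2b and 0.00748 for Grin2d, and the pan-neuronal covariate 0.000751 for Gria3. The length trend removed, with or without the block, gave 0.0427 for Gria3, 0.10 for Grin2b and 0.0215 for Grin2d. DESeq2 gave 0.00402 for Grin2d, and leaving out AAV-GFP replicate 2 and AAV-SIRT3 replicate 6 gave 0.00746 for Gria3 and 0.0227 for Grin2b. Leaving out 1 library gave -0.0303 to 0.0142 for Gria3, -0.0391 to 0.0759 for Grin2a, -0.0997 to 0.0227 for Grin2b and -0.0347 to 0.0455 for Grin2d. In AAV-SIRT3 against intact the thalamic covariate gave -0.0645 for Grin2a and -0.10 for Grin2c, leaving out intact replicates 1, 3 and 5 gave -0.0179 for Grin2c, and removing the length trend, with or without the block, gave 0.0533 for Gria3, 0.0483 for Grin1, 0.000212 for Grin2b and 0.0812 for Grin3a.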

Other observations

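Within each family the make-up was computed as a share of the summed level per kb of the longest coding transcript. Gria2 took 23.4 ± 0.66% of the AMPA subunits for intact, 22.1 ± 1.51% for AAV-GFP and 21.2 ± 0.675% for AAV-SIRT3 libraries (SD, n = 6 each). Its intact range of 22.7 to 24.6% did not overlap the AAV-SIRT3 range of 19.9 to 21.97%. Among the GluN2 subunits, Grin2b took 28.7 ± 1.44%, 26.9 ± 3.12% and 23.5 ± 2.64%, and Grin2a 14.8 ± 1%, 14.4 ± 0.918% and 15.7 ± 0.651%. With exon union lengths the Gria2 shares were 19.9, 18.9 and 18.03% and the Grin2b shares 30.7, 28.7 and 25.1%. These shares restate the subunit levels given above and were not tested. The length trend was not removed from them, and the non-overlap of the Gria2 share has no background beside it. AAV-GFP replicate 2 had the lowest Gria2 and Grin2b share of its group, and AAV-SIRT3 replicate 6 that of its own.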
